A study of Mus musculus with 24 samples.

Results

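Neuron cultures from the medial ganglionic eminence (MGE) were set against neuron cultures from the cortex (CTX) at rest, before any depolarization. The 8 arrays were chosen by their labels alone, as all MGE and all CTX arrays at 0 h of KCl, out of 24 arrays in the series. They were 2 arrays each of MGE cultures from Npas4 knockout (KO) mice, MGE cultures from wild-type (WT) littermates, CTX cultures from KO mice and CTX cultures from WT littermates. All mice had the C57Bl/6 background, the tissue was taken at embryonic day 14, and the neurons had been in culture for 10 days. All 8 cultures had been silenced overnight from day 9 with the sodium channel blocker TTX (tetrodotoxin) and the NMDA receptor antagonist AP-5, and none had yet received the 55 mM KCl given to the other 16 arrays for 1 or 6 h. The labels describe whole cultures and give no sorting of cells, no pooling of embryos and no allele design of the knockout. They do not say whether the 2 repeats of a group came from separate cultures, so p-values measure the spread between these arrays.

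The MGE is a transient swelling in the floor of the embryonic forebrain. Its progenitors express Nkx2-1, and their daughters switch on Lhx6 and Sox6 and migrate into the cortex, where they become the parvalbumin and somatostatin classes of GABA-releasing interneurons. Other MGE cells stay ventral and become pallidal, striatal and cholinergic neurons, some of them through Lhx8, Isl1 and Gbx1. Progenitors of the dorsal cortex instead pass through a programme of NeuroD family factors, Tbr1 and Fezf2 and become glutamate-releasing projection neurons, which use the vesicular transporter Slc17a7. At the age of dissection cortical tissue already holds interneurons that have migrated in from the MGE, so a CTX culture is a mixture by origin. In such bulk samples fewer cells of a type and less RNA per cell cannot be told apart.

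The 8 arrays separated by cell origin along a component that held 86.1% of the variance of the genes tested. Correlations across genes lay between 0.990 and 0.997 among CTX arrays and between 0.915 and 0.998 among MGE arrays, against 0.721 to 0.872 between the cell types. MGE WT repeat 2 stood apart. It correlated with the other MGE arrays at 0.915 to 0.948, and 331 genes lay over 2-fold above and 1159 over 2-fold below the mean of the other 3 MGE arrays. It was the lowest MGE array in 76.4% of the genes called lower in MGE and the highest in 73.1% of those called higher, so it lay further from the CTX arrays than the others did. MGE KO repeat 2 had 549 genes over 2-fold above and 48 below the other 3. The repeat 1 arrays of MGE KO and MGE WT correlated with each other at 0.998. The main results are therefore given with and without MGE WT repeat 2. Npas4 itself, the deleted gene, was at log2 intensities of 5.67 and 5.35 in MGE KO, 5.70 and 5.84 in MGE WT, 5.82 and 5.78 in CTX KO, and 5.80 and 5.94 in CTX WT. These levels lay below the array medians of 6.85 to 6.92, so Npas4 was not tested, and at rest it does not check the genotype labels.

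**Figure D1:**
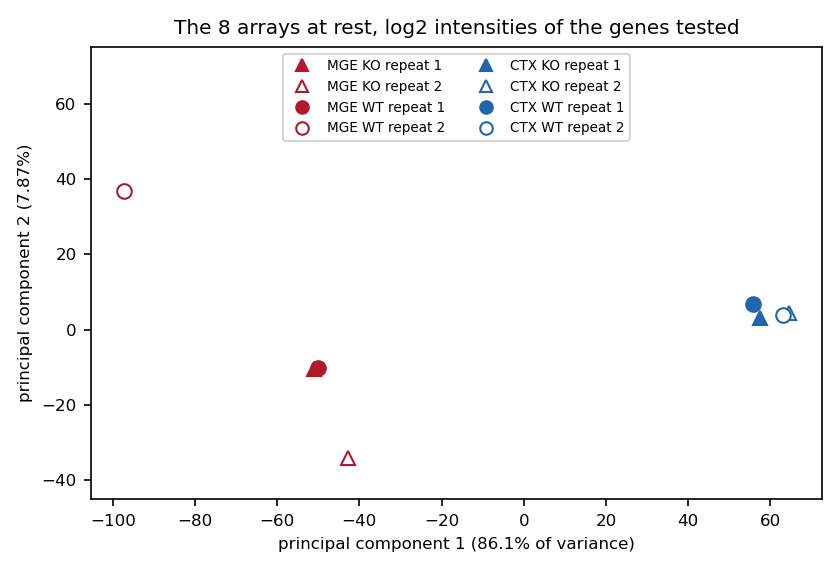
The 8 arrays at rest on their first principal components (x axis, 86.1% of the variance; y axis, 7.87%), computed from log2 intensities of 11919 genes, each symbol 1 array. MGE arrays lie left and CTX arrays right, the CTX arrays lie close together, and MGE WT repeat 2 lies away from the other MGE arrays.

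Most genes tested differed between the cell types. Of 11919 genes, 8166 (68.5%) passed at an adjusted p under 0.05, of which 4576 (38.4% of those tested) had the higher level in MGE arrays and 3590 (30.1%) the lower, and 3753 did not pass. All 4 MGE arrays lay above all 4 CTX arrays in 4436 genes (37.2%) and below them in 3762 (31.6%). The median difference over all genes tested was 0.09 on the log2 scale. Differences of at least 4-fold among called genes were fewer, with 347 genes (2.91%) higher and 537 (4.51%) lower in MGE. Without MGE WT repeat 2 the counts were 4707 higher and 3790 lower, and 7969 of the 8166 calls were made again in the same direction. With so wide a background, the number of called members of a gene list says little unless most of them lie on one side or the differences are large. In the values below, arrays are named in the order KO repeats 1 and 2 and WT repeats 1 and 2, a difference is MGE minus CTX on the log2 scale with its standard error (SE) from the fit to 4 arrays of each cell type, and a level is a log2 intensity. A result for WT or KO arrays alone is the difference within that genotype. It comes from a fit of group means to all 8 arrays, with a shared estimate of the spread. Levels under about 6.9 lay below the array median, where the files hold no detection call, and a fold that rests on such a level is only approximate.

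Transcription factors of cortical projection neurons included 5 of the 6 genes furthest below zero, the other being a clone name. Of 40 on the list, 32 passed the filter on low levels; 25 were lower in MGE cultures, 2 were higher and 5 did not pass, with a median difference of -2.70. Neurod6, a basic helix-loop-helix factor of postmitotic projection neurons, had levels of 3.44, 3.69, 3.59 and 3.87 in MGE arrays, against 12.21, 12.38, 12.30 and 12.38 in CTX arrays. Every MGE array was far below the array median and every CTX array far above it, a 408-fold difference (-8.67 ± 0.10, adjusted p = 5.3e-08). Tbr1, the T-box factor of early-born deep-layer neurons, had levels of 4.24, 3.92, 4.19 and 3.73 in MGE arrays, against 11.54, 11.78, 11.65 and 11.88 in CTX arrays (-7.69 ± 0.14, adjusted p = 3.9e-07). Neurod2, a close relative of Neurod6, was at 5.08, 5.0, 5.16 and 5.82 in MGE arrays, against 12.35, 12.35, 12.43 and 12.38 in CTX arrays (-7.11 ± 0.16, adjusted p = 6.4e-07). Fezf2, the selector of subcerebral projection neurons, was at 4.94, 4.84, 5.15 and 5.32 in MGE arrays, against 11.48, 11.15, 11.72 and 11.30 in CTX arrays (-6.35 ± 0.13). In all 4 genes the groups stood apart by more than the spread within either, and MGE WT repeat 2 did not decide the value: without it the differences were -8.74, -7.58, -7.29 and -6.40.

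The promoters of Neurod2 and Tbr1 are shown because these factors define the projection neuron side of the comparison. Each is the 250 bases before the annotated RefSeq start on GRCm38.p6, read 5′ to 3′ on the gene's strand: chr11:98329646-98329895 on the minus strand for Neurod2 and chr2:61804203-61804452 on the plus strand for Tbr1. Capitals mark CAGATG or its reverse complement, an E-box form that NeuroD factors bind, in Neurod2, and TAATTA, a core bound by many homeodomain factors, in Tbr1.
Neurod2: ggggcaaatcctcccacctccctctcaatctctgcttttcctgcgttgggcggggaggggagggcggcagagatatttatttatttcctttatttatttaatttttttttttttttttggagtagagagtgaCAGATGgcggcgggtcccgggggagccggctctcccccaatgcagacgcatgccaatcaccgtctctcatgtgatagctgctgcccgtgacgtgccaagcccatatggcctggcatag
Tbr1: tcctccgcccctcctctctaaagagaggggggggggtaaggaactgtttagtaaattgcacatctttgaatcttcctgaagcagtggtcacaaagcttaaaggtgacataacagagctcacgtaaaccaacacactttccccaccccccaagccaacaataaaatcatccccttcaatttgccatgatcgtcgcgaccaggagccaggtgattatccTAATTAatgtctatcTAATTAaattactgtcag
The Neurod2 match begins at -118 from the start, and the Tbr1 matches at -33 and -18. On either strand CAGATG stood in 17.2% of all 32851 promoters of the table, in 12.1% of those of genes at least 4-fold higher in MGE and in 14.4% of those at least 4-fold lower. TAATTA stood in 5.29%, 4.79% and 4.02% in the same order. The matches are a description of the letters and show no binding.

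The other cortical factors followed at smaller distances. Rorb, a nuclear receptor of layer 4 neurons, differed by -5.49 ± 0.19, Neurod1 by -5.12 ± 0.28, and Sox5, which times the production of deep-layer neurons, by -4.67 ± 0.30. Zbtb18, a repressor needed for cortical neuron production, had levels averaging 8.98 ± 0.48 in MGE arrays and 13.42 ± 0.26 in CTX arrays (SD, n = 4 each), so its MGE level was above the array median too. Emx1, Lhx2 and Otx1, which pattern the dorsal forebrain, differed by -3.24 ± 0.12, -3.44 ± 0.14 and -3.47 ± 0.12. Ldb2, a LIM-domain binding cofactor of deep-layer neurons, was at 5.68, 5.53, 5.63 and 5.28 in MGE arrays, against 12.98, 13.00, 13.01 and 12.95 in CTX arrays (-7.45 ± 0.10). The 2 factors on the other side were Cux2, at 13.66, 13.79, 13.64 and 13.72 in MGE arrays, against 12.39, 12.69, 12.39 and 12.40 in CTX arrays (1.24 ± 0.09, adjusted p = 7.1e-05), and Cux1 (0.93 ± 0.12). Both are known as markers of upper-layer projection neurons and are also expressed in interneurons. Bcl11b, a factor of deep-layer projection neurons and of ventral forebrain neurons, had a difference of 0.13 ± 0.10 that did not pass (adjusted p = 0.29), with levels of 12.83 to 13.28 in MGE arrays and 12.88 to 13.01 in CTX arrays, but 2 other probe sets of Bcl11b passed in opposite directions, at 2.42 and -1.47.

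Most transcription factors of the MGE and of its interneurons were higher in MGE cultures. Of 31 on the list, 21 passed the filter: 15 were higher, 4 lower and 2 did not pass, with a median of 1.73 (1.83 without MGE WT repeat 2). Lhx6, the LIM homeodomain factor of migrating MGE interneurons, was at 13.03, 13.07, 13.08 and 12.79 in MGE arrays, against 9.59, 9.96, 10.00 and 9.54 in CTX arrays. The groups did not overlap, and Lhx6 was nonetheless above the array median in every CTX array (3.22 ± 0.14, 9.32-fold, adjusted p = 8.6e-06). Sox6, which acts after Lhx6, was at 12.45, 12.32, 12.43 and 12.25 in MGE arrays, against 9.16, 9.42, 9.37 and 9.09 in CTX arrays (3.10 ± 0.11). Maf, which favours somatostatin over parvalbumin fates, differed by 2.0 ± 0.15. Among the distal-less factors shared by all ganglionic eminences, Dlx1 differed by 2.36 ± 0.21, Dlx6 by 2.26 ± 0.11 and Dlx5 by 1.68 ± 0.30, whereas Dlx2 had 0.83 ± 0.47 and did not pass (adjusted p = 0.15). Dlx2 was at 11.23, 11.92, 11.38 and 9.25 in MGE arrays, against 10.20, 10.29, 10.19 and 9.75 in CTX arrays. MGE WT repeat 2 was thus below all CTX arrays and the other 3 MGE arrays above them, and without it Dlx2 passed at 1.36. Nkx2-1, the founding factor of the MGE, stayed near the array median in MGE arrays (6.63, 6.67, 6.58 and 7.03, against 6.19, 6.45, 6.37 and 6.13 in CTX arrays) and was not tested. It is known to be switched off in most interneurons that leave for the cortex.

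The factors lower in MGE cultures were Nr2f1, Nr2f2, Satb1 and Zeb2. Nr2f1 and Nr2f2 are nuclear receptors abundant in the caudal eminence and in caudal cortex, and Nr2f1 was at 10.60, 10.08, 10.38 and 8.01 in MGE arrays, against 12.62, 12.58, 12.70 and 12.72 in CTX arrays (-2.89 ± 0.51, and -2.29 without MGE WT repeat 2). Nr2f2 differed by -2.08 ± 0.57 (-1.42 without that array), but with all its probe sets averaged the difference was -0.16 and did not pass. Satb1, a chromatin organiser of maturing somatostatin interneurons that cortical neurons also express, differed by -2.59 ± 0.21. Zeb2 had -1.70 ± 0.48 on the probe set used, but 1 other probe set of it passed in the opposite direction, the mean of its probe sets was -0.05, and without CTX WT repeat 2 the difference was -1.44 and did not pass.

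Lhx8, Isl1 and Gbx1, factors of ventral and cholinergic neurons, were high in MGE cultures but varied between repeats. Lhx8 was at 11.89, 10.54, 11.82 and 9.56 in MGE arrays, against 5.21, 4.78, 5.12 and 5.17 in CTX arrays (5.89 ± 0.52, 59.2-fold, adjusted p = 1.3e-04). Isl1 was at 9.57, 8.01, 9.43 and 6.98 in MGE arrays, against 5.32, 4.30, 3.95 and 4.30 in CTX arrays (4.03 ± 0.58). Gbx1 was at 10.18, 7.85, 10.19 and 9.12 in MGE arrays, against 5.41, 5.19, 5.27 and 5.44 in CTX arrays (4.01 ± 0.50). In each of the 3 genes both repeat 1 arrays of MGE lay above both repeat 2 arrays, in KO and WT alike, and all 4 lay above every CTX array. Of 11 cholinergic markers 5 passed the filter and 4 of them were higher, with a median of 4.01; besides these 3 factors the called gene was Ngfr, the low-affinity neurotrophin receptor (2.87 ± 0.20). The genes that define cholinergic transmission were not among them: Chat, Slc18a3 and Slc5a7 did not pass the filter, and Chat was at 3.98, 3.88, 4.04 and 4.36 in MGE arrays, against 3.93, 3.94, 3.88 and 3.84 in CTX arrays.

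The genes that make and package GABA were higher in MGE cultures but well expressed in both. Gad2, which makes GABA from glutamate, was at 12.92, 12.85, 12.83 and 12.77 in MGE arrays, against 10.65, 10.75, 10.73 and 10.51 in CTX arrays (2.18 ± 0.08, 4.54-fold, adjusted p = 5e-06). Gad1, its partner enzyme, differed by 1.84 ± 0.13 and Slc32a1, which loads GABA into vesicles, by 3.35 ± 0.15 (12.88, 12.64, 12.88 and 13.11 in MGE arrays, against 9.45, 9.61, 9.80 and 9.24 in CTX arrays). Abat, the enzyme that degrades GABA, was also higher (1.16 ± 0.14). The 6 tested genes of GABA handling held 4 higher and 1 lower, with a median of 1.5. The lower one was Slc6a11, the GABA transporter known mostly from astrocytes, at 5.45, 6.5, 5.57 and 5.23 in MGE arrays, against 9.79, 10.49, 9.84 and 10.52 in CTX arrays (-4.47 ± 0.30, and -2.25 with all its probe sets averaged). The Gad2 promoter, the 250 bases at chr2:22622077-22622326 on the plus strand, is shown beside that of Neurod2 because it holds the same E-box, here as the reverse complement at -76 (capitals), in a gene that differed in the opposite direction.
Gad2: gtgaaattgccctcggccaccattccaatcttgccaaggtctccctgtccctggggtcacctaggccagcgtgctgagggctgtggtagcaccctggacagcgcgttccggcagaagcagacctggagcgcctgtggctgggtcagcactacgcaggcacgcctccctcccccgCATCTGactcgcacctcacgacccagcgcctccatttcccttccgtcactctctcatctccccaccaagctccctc

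Among genes of glutamate handling, the 2 vesicular transporters had the largest differences. Slc17a7, the transporter of cortical projection neurons, was at 5.14, 5.40, 5.07 and 5.83 in MGE arrays, against 11.07, 10.89, 11.42 and 11.31 in CTX arrays (-5.81 ± 0.17, 56.2-fold, adjusted p = 2.5e-06). Slc17a6, the transporter of subcortical and immature cortical glutamate neurons, was at 8.53, 3.68, 7.19 and 3.75 in MGE arrays, against 9.69, 10.43, 9.21 and 9.84 in CTX arrays. Repeats 1 of MGE KO and MGE WT were thus above the array median and repeats 2 far below it, and the difference of -4.0 ± 1.13 (adjusted p = 0.016) was -3.04 without MGE KO repeat 2 and -4.98 without MGE KO repeat 1. Every MGE array lay below every CTX array, but the MGE arrays spanned more than that difference, and the call was lost in WT arrays alone (-4.05) and in KO arrays alone (-3.95). Of the other 6 tested genes of this list, Got1 (0.61 ± 0.11) and Slc1a3, the glial glutamate transporter (0.86 ± 0.23), were higher in MGE, and 4 did not pass; the Slc1a3 call was lost when its probe sets were averaged (0.10).

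**Figure D2:**
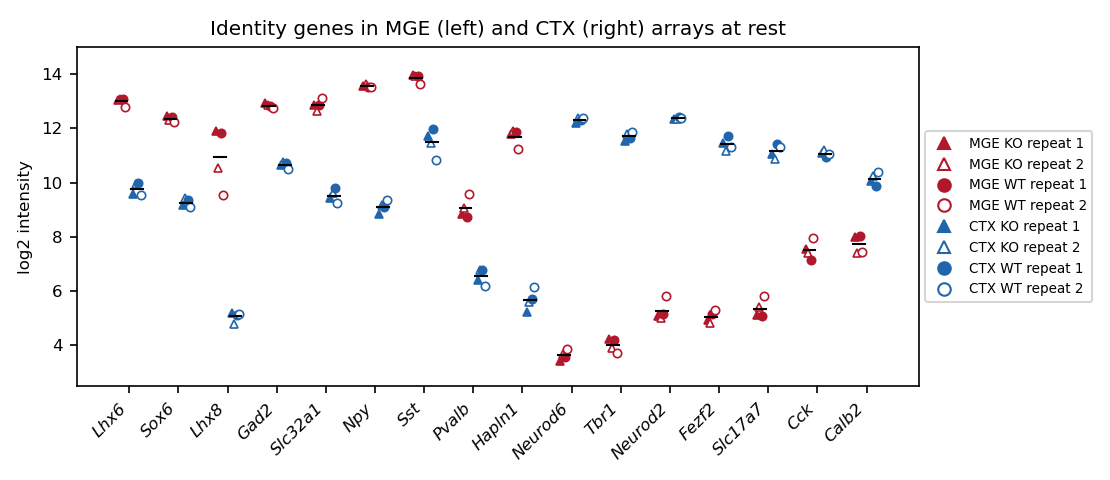
Log2 intensity (y axis) of 16 identity genes (x axis) in the 8 arrays at rest, MGE arrays in red on the left and CTX arrays in blue on the right of each gene, bars at the mean of 4 arrays. From Lhx6 to Hapln1 all MGE arrays lie above all CTX arrays, from Neurod6 to Calb2 all lie below, and Lhx8 shows the widest spread among MGE arrays.

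Neuropeptide genes lay on both sides. Of 14 tested precursors, 6 were higher and 4 lower in MGE cultures. Npy, neuropeptide Y of interneurons, was at 13.56, 13.63, 13.52 and 13.53 in MGE arrays, against 8.83, 9.18, 9.10 and 9.35 in CTX arrays (4.44 ± 0.12, 21.8-fold, adjusted p = 1.4e-06), with under 0.2 between the highest and lowest MGE array. Sst, somatostatin, was at 13.98, 13.93, 13.94 and 13.63 in MGE arrays, against 11.71, 11.46, 11.98 and 10.85 in CTX arrays (2.37 ± 0.23, adjusted p = 2e-04). Pnoc, the nociceptin precursor, and Penk, the enkephalin precursor, differed by 3.47 ± 0.23 and 3.48 ± 0.26. On the other side Adcyap1, which encodes PACAP, differed by -5.42 ± 0.24 and Cck, cholecystokinin, was at 7.56, 7.39, 7.14 and 7.97 in MGE arrays, against 11.10, 11.19, 10.96 and 11.04 in CTX arrays (-3.56 ± 0.18). Grp, gastrin-releasing peptide, differed by -3.08 ± 0.13 and Tac1, the substance P precursor, by -1.54 ± 0.33. Vip, a peptide of interneurons from the caudal eminence, did not pass the filter. The Sst promoter, the 250 bases at chr16:23890845-23891094 on the minus strand, is shown because it carries the cyclic AMP response element through which CREB is known to drive this gene. Capitals mark TGACG and its reverse complement, which overlap, from -48.
Sst: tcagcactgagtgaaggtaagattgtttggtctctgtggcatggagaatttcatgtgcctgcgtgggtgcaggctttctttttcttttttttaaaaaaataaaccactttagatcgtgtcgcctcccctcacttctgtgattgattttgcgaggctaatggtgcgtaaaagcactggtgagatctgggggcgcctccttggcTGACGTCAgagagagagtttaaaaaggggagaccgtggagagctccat
TGACG on either strand stood in 20.8% of all promoters of the table, in 18.3% of those of genes at least 4-fold higher in MGE and in 27.6% of those at least 4-fold lower.

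Receptors of neuropeptides and opioids lay on both sides. Of 20 listed, 11 passed the filter: 4 were higher and 5 lower in MGE, against 38.4% and 30.1% of all genes tested. Some differed in the opposite direction from their ligand and some in the same direction. Grpr, the receptor of gastrin-releasing peptide, was at 8.57, 9.01, 8.36 and 8.34 in MGE arrays, against 4.38, 4.12, 4.25 and 4.39 in CTX arrays (4.28 ± 0.15, adjusted p = 4e-06), while its ligand Grp was lower in MGE. Adcyap1r1, the PACAP receptor, was higher in MGE (1.17 ± 0.11, and 0.50 with its probe sets averaged). Npy1r was lower (-1.91 ± 0.22), in the opposite direction from Npy, and Npy2r, the presynaptic receptor, was higher (3.16 ± 0.48), in the same direction as Npy. Cckbr, the brain cholecystokinin receptor, was lower (-1.64 ± 0.15), in the same direction as Cck. The neurotensin receptor Ntsr1, a marker of layer 6 neurons, was at 7.57 ± 0.67 in MGE arrays and 11.60 ± 0.15 in CTX arrays (SD, n = 4 each; -4.03 ± 0.28).

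Other interneuron markers were mostly higher in MGE cultures: of 22 tested, 13 were higher and 6 lower, with a median of 1.51. Pvalb, the calcium-binding protein of fast-spiking cells, was at 8.85, 9.05, 8.75 and 9.57 in MGE arrays, against 6.43, 6.78, 6.78 and 6.18 in CTX arrays (2.51 ± 0.22). Elfn1, an adhesion protein that sets synapses onto somatostatin cells, differed by 3.15 ± 0.16, Chodl, a marker of long-range somatostatin cells, by 3.14 ± 0.18, and Reln, the secreted glycoprotein reelin, by 1.95 ± 0.08. Kcnc1, the potassium channel subunit of fast spiking, differed by 1.70 ± 0.08. The lower ones included Calb2, calretinin of caudal-eminence interneurons, at 8.0, 7.42, 8.03 and 7.46 in MGE arrays, against 10.06, 10.26, 9.88 and 10.38 in CTX arrays (-2.42 ± 0.19, adjusted p = 9.2e-05), as well as Nos1, nitric oxide synthase (-0.78 ± 0.13). Calb1, calbindin, had -0.22 ± 0.24 and did not pass (adjusted p = 0.44), with levels of 10.52 to 11.53 in MGE arrays and 11.07 to 11.60 in CTX arrays.

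Other markers of projection neurons were mostly lower: of 28 tested, 21 were lower and 3 higher, with a median of -0.78. The list of genes shared by forebrain neurons of both origins had the same median, with 9 of 14 tested lower and 1 higher. Tafa1, a secreted cytokine-like protein, differed by -6.13 ± 0.17, Nrn1, the growth-promoting surface protein neuritin, by -5.38 ± 0.45, Cpne4, a copine, by -4.35 ± 0.35 and Nrgn, the calmodulin-binding protein neurogranin, by -3.27 ± 0.29. The kinase subunits Camk2a and Camk2b, often used as excitatory markers, differed by -0.79 ± 0.13 and -0.80 ± 0.09. The other 3 probe sets of Camk2a were further apart, at -1.38, -2.27 and -1.49. Igfbp4, a binding protein of insulin-like growth factors, was the exception in size, higher by 3.49 ± 0.14 (11.54 ± 0.18 in MGE arrays and 8.05 ± 0.28 in CTX arrays, SD, n = 4 each).

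The receptors for GABA and glycine differed by subunit and not as a class, with 5 of 14 tested higher and 6 lower in MGE (median -0.23). Gabrd, the subunit of extrasynaptic receptors, was at 11.03, 10.83, 11.10 and 12.16 in MGE arrays, against 8.24, 8.13, 8.59 and 8.30 in CTX arrays (2.96 ± 0.23, and 1.47 with its probe sets averaged). Glra3, a glycine receptor subunit, was at 9.43, 9.86, 9.52 and 8.59 in MGE arrays, against 4.94, 5.44, 4.96 and 5.79 in CTX arrays (4.07 ± 0.31). Gabra4 was lower, at 7.66, 7.75, 7.66 and 4.86 in MGE arrays, against 11.05, 11.28, 10.93 and 11.19 in CTX arrays. MGE WT repeat 2 lay far below the other MGE arrays, and the difference of -4.13 ± 0.59 was -3.43 without it. Gabra2 (-1.55 ± 0.20), Gabra5 (-1.29 ± 0.19) and Gabrb1 (-1.51 ± 0.28) were lower too, and Gphn, the scaffold gephyrin that anchors these receptors, was higher (0.99 ± 0.07, and 0.49 with its probe sets averaged).

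Glutamate receptor genes lay on both sides as well. Of 30 tested genes 13 were higher and 8 lower in MGE, against 38.4% and 30.1% of all genes tested, with a median of 0.20. Among AMPA receptor subunits, Gria1 was at 13.53, 13.41, 13.58 and 13.75 in MGE arrays, against 11.65, 11.59, 11.79 and 11.88 in CTX arrays (1.84 ± 0.08, adjusted p = 8.5e-06), and Gria4, a subunit of interneurons, was higher by 1.41 ± 0.09. Gria2, which makes the receptor impermeable to calcium, had -0.05 ± 0.08 and did not pass (adjusted p = 0.60) on the probe set used, with 12.88 to 13.07 in MGE arrays and 12.94 to 13.12 in CTX arrays. Another probe set of Gria2 passed at -0.89. The AMPA auxiliary proteins Cacng3 and Cacng2 were higher by 2.41 ± 0.10 and 1.42 ± 0.12. Grik1, the kainate receptor subunit known from interneurons, was at 12.15, 12.34, 12.20 and 11.71 in MGE arrays, against 8.75, 9.17, 8.90 and 9.20 in CTX arrays (3.09 ± 0.17). The metabotropic receptors Grm3, Grm2 and Grm7, which inhibit transmitter release, were lower by -3.06 ± 0.25, -2.66 ± 0.15 and -2.18 ± 0.22. Of the receptors for other transmitters, 7 of 14 tested were lower and 2 higher, among them the serotonin receptor Htr1a (-3.00 ± 0.17), the cannabinoid receptor Cnr1 (-2.23 ± 0.24) and, on the higher side, the serotonin receptor Htr7 (2.09 ± 0.19).

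Ion channel genes lay on both sides. Of 42 tested potassium channel genes 12 were higher and 19 lower in MGE (median -0.38), against 38.4% and 30.1% of all genes tested. Kcnc1 (above), Kcnip1 (1.41 ± 0.12), a partner of fast A-type channels in interneurons, and Kcns3 (1.23 ± 0.09), a modifier subunit of parvalbumin cells, were higher. Kcnv1 (-3.23 ± 0.25), a silent modifier subunit, Kcnk10 (-3.18 ± 0.37), a leak channel, and Kcnq3 (-2.82 ± 0.34) and Kcnq5 (-1.69 ± 0.11), subunits of the M-current, were lower. Of 23 tested sodium, calcium and pacemaker channel genes 7 were higher and 8 lower (median -0.06). The largest differences were in the alpha-2-delta subunits that carry calcium channels to the synapse, and they ran in opposite directions. Cacna2d1 was at 8.63, 9.30, 8.77 and 7.84 in MGE arrays, against 13.33, 13.47, 13.39 and 13.51 in CTX arrays (-4.79 ± 0.26, 27.7-fold), and Cacna2d2 was at 11.72, 11.23, 11.84 and 11.79 in MGE arrays, against 9.17, 9.74, 9.10 and 9.46 in CTX arrays (2.28 ± 0.19). With all probe sets averaged these were -2.94 and 0.75.

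At the synapse, genes of the release machinery lay on both sides. Of 39 tested presynaptic genes 15 were higher and 11 lower in MGE (median -0.07), against 38.4% and 30.1% of all genes tested. Sv2b, a synaptic vesicle protein of glutamate terminals, was at 6.46, 6.14, 6.34 and 5.38 in MGE arrays, against 11.53, 11.66, 12.15 and 12.37 in CTX arrays (-5.85 ± 0.29), while its relative Sv2a, present in most terminals, was higher (0.79 ± 0.08). Rph3a, the Rab3 effector rabphilin, was at 13.36, 13.42, 13.38 and 13.45 in MGE arrays, against 9.97, 10.25, 10.02 and 10.38 in CTX arrays (3.25 ± 0.11). The complexin Cplx1, of inhibitory terminals, was higher by 0.98 ± 0.08, Vamp1, a synaptobrevin of fast-spiking cells, by 1.17 ± 0.13, and Unc13a and Doc2b, priming and calcium-sensing proteins, were lower by -1.84 ± 0.22 and -2.97 ± 0.36. The complexin Cplx2 differed in the same direction as Cplx1, by 0.86 on the probe set used and by 1.35 and 1.26 on other probe sets. Of 23 tested genes of the excitatory postsynapse 12 were lower and 6 higher (median -0.51), among them Baiap2 (-2.96 ± 0.10), Lzts1 (-2.66 ± 0.26) and Homer1 (-1.18 ± 0.18) on the lower side. Dlg4, Iqsec1 and Synpo are among the 6 higher ones, but each has another probe set that passed in the opposite direction, and Dlg4 was -1.09 with its probe sets averaged against 0.68 on the probe set used.

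Adhesion genes that organise synapses held 22 lower and 13 higher of 45 tested (median -0.34). Lrrtm3 (-3.84 ± 0.26) and Slitrk2 (-3.35 ± 0.21), leucine-rich repeat proteins of the postsynapse, and the secreted organisers Cbln1 (-3.42 ± 0.23) and Nxph3 (-3.29 ± 0.14) were lower. Elfn1 (above), Cntn4 (2.53 ± 0.20), Nxph2 (1.90 ± 0.22), Cntnap2 (1.72 ± 0.11) and Nxph1 (1.65 ± 0.13) were higher. The neurexophilins, secreted ligands of neurexins, therefore divided: Nxph1 was at 12.20 ± 0.25 in MGE arrays and 10.56 ± 0.14 in CTX arrays, Nxph2 was at 12.34 ± 0.50 in MGE arrays and 10.44 ± 0.20 in CTX arrays (SD, n = 4 each), and Nxph3 and Nxph4 (-2.37 ± 0.22) ran the other way. Of 23 tested cadherins and protocadherins 11 were lower and 7 higher (median -0.29), against 30.1% and 38.4% of all genes tested. Cdh6 (-3.67 ± 0.18) and Cdh8 (-2.68 ± 0.28) were lower and Cdh9 (1.40 ± 0.27) and Cdh7 (1.30 ± 0.25) higher. These type II cadherins are known to mark neuronal subsets of the forebrain.

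**Figure D3:**
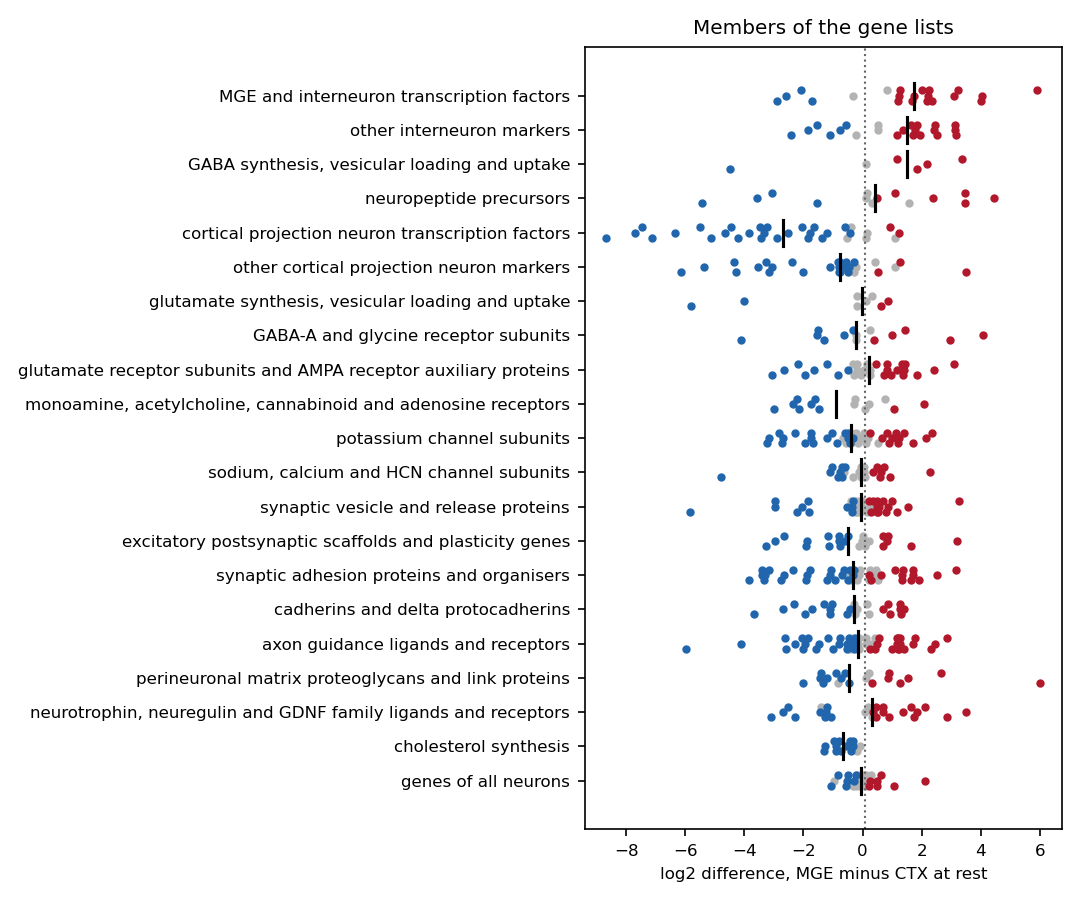
Log2 difference, MGE minus CTX at rest (x axis), of every tested member of 21 gene lists (rows): red points were called higher in MGE, blue points lower, grey points did not pass, black bars are list medians and the dotted line is the median of all genes tested, 0.09. Cortical projection neuron factors reach -8.67 with a median of -2.70, MGE and interneuron factors have a median of 1.73, and most synaptic and channel lists spread to both sides.

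Guidance genes were evenly divided, with 19 higher and 22 lower of 51 tested, against 38.4% and 30.1% of all genes tested. Ligands and receptors lay on opposite sides in some pairs and on the same side in others. Cxcl12, the chemokine that keeps migrating interneurons in their streams, was at 5.31, 5.62, 5.41 and 5.54 in MGE arrays, against 11.67, 11.18, 11.81 and 11.10 in CTX arrays (-5.97 ± 0.18, 62.7-fold, and -2.23 with its probe sets averaged). Its receptors Cxcr4 and Ackr3, which migrating interneurons carry, were higher in MGE. Cxcr4 was at 10.02, 10.98, 9.94 and 9.38 in MGE arrays, against 8.82, 9.14, 8.53 and 9.13 in CTX arrays (1.17 ± 0.28, adjusted p = 0.0086), and Ackr3 was at 11.09, 11.56, 11.11 and 9.59 in MGE arrays, against 7.87, 9.37, 7.49 and 8.76 in CTX arrays (2.46 ± 0.48). MGE WT repeat 2 was the lowest MGE array for both receptors. The same arrangement was seen for neuregulin, with the ligand Nrg1 lower (-2.51 ± 0.24) and its receptor Erbb4, a marker of MGE interneurons, higher (1.84 ± 0.20). The netrins Ntn1 (2.86 ± 0.33) and Ntn4 (2.30 ± 0.21) were higher, as were the semaphorin receptors Nrp1 (1.26 ± 0.11) and Nrp2 (1.41 ± 0.27), whereas Plxnd1, a plexin (-4.13 ± 0.08), and Robo1, a Slit receptor (-2.29 ± 0.29), were lower. The ligands Slit1 (-1.47) and Sema3e (-2.06) were on the lower side, like Robo1 and Plxnd1, but another probe set of Slit1 had -0.13 and did not pass. The netrin receptor Unc5c (1.15) was on the higher side, like Ntn1.

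Genes of the extracellular matrix, growth factors and morphogens gave the largest difference on the higher side. Hapln1, the link protein that fixes proteoglycans to hyaluronan in perineuronal nets, was at 11.78, 11.91, 11.86 and 11.24 in MGE arrays, against 5.25, 5.62, 5.71 and 6.14 in CTX arrays (6.01 ± 0.23, 64.6-fold, adjusted p = 5e-06, and 3.71 with its probe sets averaged). Acan, the aggrecan core protein of such nets, was higher by 1.27 ± 0.22, while the proteoglycans Vcan and Ncan were lower by -1.44 ± 0.12 and -0.45 ± 0.08 and Tnr, a tenascin of the nets, by -1.41 ± 0.16. The matrix list as a whole held 7 higher and 9 lower of 19 tested, against 38.4% and 30.1% of all genes tested. Of 26 tested trophic factor genes 13 were higher and 9 lower, among them Igf1 (2.10 ± 0.40) on the higher side and Ntrk3, the neurotrophin-3 receptor (-2.69 ± 0.26), on the lower. Of 26 tested morphogen genes 9 were higher and 10 lower: Wnt7a (2.22 ± 0.09) and Ptch1, the Hedgehog receptor (0.99 ± 0.09), were higher, and Wnt7b (-3.03 ± 0.25) and the Frizzled receptors Fzd1 (-2.53 ± 0.14) and Fzd8 (-2.52 ± 0.10) were lower. Shh, whose MGE expression precedes interneuron birth, had 0.27 ± 0.31 and did not pass (adjusted p = 0.46).

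Of 14 tested genes of cholesterol synthesis 12 were lower in MGE and 0 higher, with a median of -0.65 (12 and -0.53 without MGE WT repeat 2). List means per array were 11.89 to 12.06 in MGE arrays, against 12.45 to 12.83 in CTX arrays. Nsdhl (-1.32 ± 0.17), Lss (-1.28 ± 0.16, and -0.60 with its probe sets averaged) and Sqle (-0.74 ± 0.12), enzymes of the pathway after squalene is formed, were among them.

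Activity-regulated genes lay on both sides. Of 36 listed, 30 passed the filter: 8 were higher and 12 lower in MGE. Egr3 was at 5.98, 5.53, 5.36 and 4.95 in MGE arrays, against 9.73, 10.24, 9.79 and 10.52 in CTX arrays (-4.62 ± 0.26, and -2.19 with its probe sets averaged), and Nr4a2 (-3.35 ± 0.45), Nr4a3 (-2.62 ± 0.12) and Plk2 (-2.42 ± 0.43) were lower too. Fos had -0.87 ± 0.37 and did not pass (adjusted p = 0.068), though it passed at -1.11 without MGE KO repeat 2 and at -1.20 without CTX KO repeat 2. Klf4 (1.86 ± 0.22), Nptx2, a secreted pentraxin (1.71 ± 0.30), and Gadd45b (1.69 ± 0.24) were higher. Arc, Fosb, Nr4a1 and Npas4 did not pass the filter.

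Genes of all neurons lay on both sides in equal numbers. Of 29 tested, 7 were higher and 7 lower in MGE with a median of -0.06, and their mean per array was 12.72 to 12.90 in MGE arrays and 12.80 to 12.87 in CTX arrays. Stmn2, a tubulin-binding protein of growing neurites, had -0.10 ± 0.07 and did not pass (adjusted p = 0.22), but its other probe set passed at -0.31, and it was called with its probe sets averaged (-0.21) and with an intensity trend and robust prior. Tubb3, the neuronal tubulin, was lower by -0.54 ± 0.07 and Snhg11, a long non-coding RNA of neurons, higher by 2.11 ± 0.15. Regional control genes of hindbrain, spinal cord, thalamus and midbrain stayed low: of 20 with a probe set, 19 did not pass the filter, and the 1 that did, Tal1, had a level below the median in MGE arrays (-2.45 ± 0.17). Striatal markers lay on both sides, with 9 higher and 7 lower of 20 tested, against 38.4% and 30.1% of all genes tested. Six3 (3.26 ± 0.21) and Ebf1 (3.52 ± 0.37), factors of striatal precursors, were higher, Foxp1 (-1.29 ± 0.11) and Meis2 (-1.78 ± 0.20), factors of striatal neurons that the cortex also expresses, were lower, and Drd2 did not pass the filter.

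Some markers of other cell types also differed between the cultures, and their part in the results above was not tested. Of all genes tested 38.4% were called higher in MGE and 30.1% lower. The counts below say little where they lie near those shares. Of 23 tested progenitor and dividing-cell markers 14 were higher and 4 lower in MGE (11 and 4 without MGE WT repeat 2, 10 and 3 in KO arrays alone, 7 and 3 in WT arrays alone), and list means per array were 9.38 to 9.96 in MGE arrays, against 8.72 to 9.28 in CTX arrays. Nes, an intermediate filament of progenitors and reactive glia, was at 10.25, 10.78, 9.67 and 11.55 in MGE arrays, against 7.88, 7.30, 7.92 and 7.51 in CTX arrays (2.91 ± 0.39), and Sox2, a progenitor and glial factor, differed by 2.45 ± 0.33. Mki67, a protein of dividing cells, was at 7.88, 8.41, 7.41 and 9.54 in MGE arrays, against 7.54, 6.11, 7.59 and 6.16 in CTX arrays, and the difference of 1.46 ± 0.56 did not pass (adjusted p = 0.051). It passed under 8 of 22 alternatives, among them 1.86 without MGE WT repeat 1, 1.78 without CTX KO repeat 1 and 1.48 with quantile normalization, and in both genotypes repeat 1 of the CTX cultures lay above repeat 2. Of 16 tested astrocyte markers 8 were higher and 2 lower in MGE, but without MGE WT repeat 2 the count was 5 higher and 2 lower, in WT arrays alone 0 higher and 3 lower, and in KO arrays alone 4 higher and 1 lower. List means were 9.72 to 10.19 in MGE arrays, against 8.92 to 9.82 in CTX arrays, so the groups overlapped. Aldh1l1 differed by 1.68 ± 0.41, a call that was lost in either genotype alone, and Gfap, the defining filament of mature astrocytes, had -0.30 ± 0.29 (adjusted p = 0.38).

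Oligodendrocyte and microglial markers were present at modest levels. Of 18 oligodendrocyte markers with a probe set 7 passed the filter and 4 were higher, among them Cnp (1.97 ± 0.12), while the lineage markers Sox10, Pdgfra, Mag and Mog did not pass. Of 12 tested microglial markers 6 were higher and 1 lower, and in KO arrays alone 1 and 0. C1qb was at 9.94, 9.08, 10.06 and 9.22 in MGE arrays, against 6.58, 7.84, 5.47 and 7.80 in CTX arrays (2.65 ± 0.56, and 0.66, not passing, on the probe set whose type is not known to match other genes), Tyrobp, an adaptor of microglial receptors, was higher by 1.95 ± 0.32, and Cx3cr1, P2ry12 and Tmem119 did not pass the filter. List means were 7.27 to 8.13 in MGE arrays, against 6.83 to 7.14 in CTX arrays. Of 20 endothelial, mural and meningeal markers 11 passed the filter, with 5 higher and 1 lower; the endothelial genes Pecam1, Cdh5, Cldn5 and Kdr did not pass. List means of 8.34 to 8.88 in MGE arrays overlapped with 7.73 to 8.81 in CTX arrays. Hba-a2, an α-globin gene of blood cells, was at 10.77, 11.54, 11.09 and 9.41 in MGE arrays, against 12.71, 12.71, 12.67 and 12.69 in CTX arrays (-2.0 ± 0.39).

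A further 3 groups of genes, gathered after the leading genes had been seen, were mostly higher in MGE, and they carry no test. Of 15 tested contractile genes 12 were higher in MGE and 0 lower (median 1.85, and 1.29 without MGE WT repeat 2). Acta2, smooth muscle actin, was at 13.24, 13.85, 13.20 and 13.64 in MGE arrays, against 10.63, 9.73, 10.22 and 9.21 in CTX arrays (3.54 ± 0.30, and 1.91 with its probe sets averaged). Tagln, transgelin, differed by 4.0 ± 0.25 and Myl9, a myosin light chain, by 4.72 ± 0.51, while Des and Myh11, genes of mature smooth muscle, did not pass the filter. Of 22 tested genes of the interferon response and antigen presentation 18 were higher and 1 lower (median 1.58), with list means of 8.85 to 9.51 in MGE arrays, against 7.23 to 7.32 in CTX arrays. Iigp1, an interferon-induced GTPase, was at 8.88, 8.77, 8.73 and 8.87 in MGE arrays, against 4.47, 4.22, 4.57 and 4.60 in CTX arrays (4.35 ± 0.10, adjusted p = 6.4e-07), and Ifitm3, a membrane protein that limits virus entry, differed by 4.05 ± 0.29. Of 24 tested genes of stromal matrix 14 were higher and 2 lower (median 1.49), with Grem1, a BMP antagonist (4.04 ± 0.20), and Col5a2, a fibrillar collagen (3.36 ± 0.50), higher and Dcn, decorin (-3.71 ± 0.35), and Fbn2, a fibrillin (-4.04 ± 0.24), lower. In the contractile and stromal lists the repeat 2 arrays of MGE KO and MGE WT had higher means than the repeat 1 arrays, and in the stromal list the same held for the CTX arrays.

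**Figure D4:**
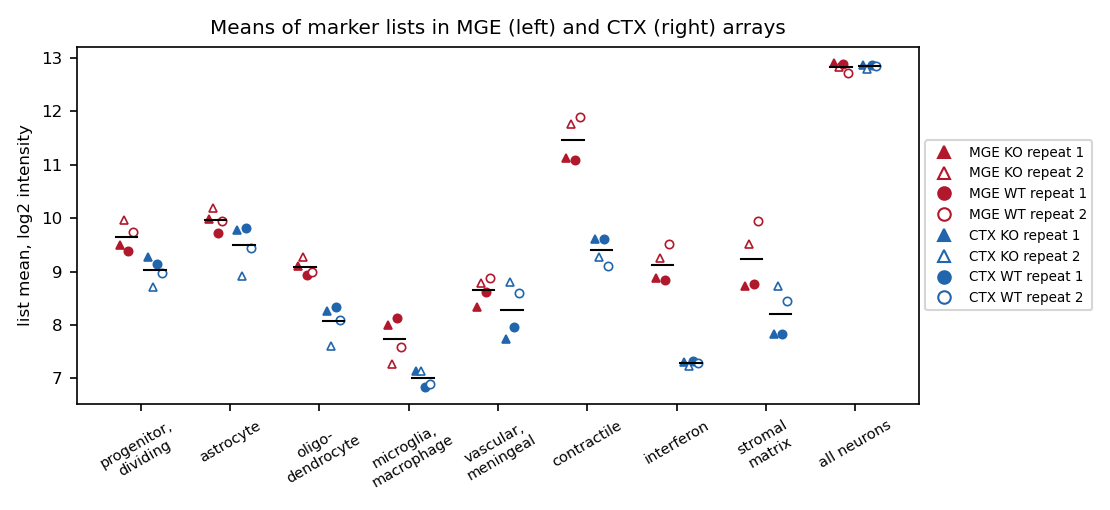
Mean log2 intensity of the tested members of 9 gene lists (y axis) in each of the 8 arrays, MGE in red on the left and CTX in blue on the right, bars at the mean of 4 arrays. Interferon and contractile means of all MGE arrays lie above all CTX arrays, astrocyte and vascular means overlap, and the means of genes of all neurons lie between 12.72 and 12.90 in all 8.

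The 20 genes furthest apart on each side, leaving out 1 clone name on each, took in more than the lists. On the lower side the remaining ones were Prdm8 (-6.28 ± 0.13), a repressor of projection neurons, Arpp21 (-5.94 ± 0.36), a phosphoprotein of forebrain projection neurons, Rspo2 (-5.73 ± 0.38), a Wnt pathway agonist, Nckap5 (-5.42 ± 0.24), Ccbe1 (-5.40 ± 0.13), Tes (-5.40 ± 0.17), a LIM protein of focal adhesions, and Ccn3 (-5.36 ± 0.25), a matricellular protein. Ccbe1, for example, was at 5.90, 6.15, 6.01 and 5.91 in MGE arrays, against 11.38, 11.70, 11.04 and 11.45 in CTX arrays. On the higher side they were Akr1c14 (4.98 ± 0.55), a steroid reductase, Krt73 (4.89 ± 0.24), a keratin, Adarb2 (4.71 ± 0.24), an RNA editing family member of interneurons, Sox2ot (4.67 ± 0.18), a long non-coding RNA overlapping Sox2, Fam107a (4.64 ± 0.47), Itih5 (4.5 ± 0.64), Dlk1 (4.28 ± 0.40), Ifi35 (4.13 ± 0.28), Kcne1l (4.09 ± 0.52) and Ccl8 (4.04 ± 0.22), a chemokine. Adarb2, known as a marker of interneurons from the caudal eminence, was at 10.68, 10.01, 10.69 and 10.17 in MGE arrays, against 5.54, 5.89, 5.24 and 6.04 in CTX arrays.

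The difference was also taken within each genotype. Among WT arrays alone 3874 genes (32.5%) were higher and 3169 (26.6%) lower in MGE, and among KO arrays alone 2582 (21.7%) were higher and 1734 (14.5%) lower. Both used a spread estimated from all 8 arrays. MGE WT repeat 2, which lay further from the CTX arrays than the other MGE arrays did, entered the WT difference and not the KO one. Its part in the larger WT counts was not tested, so the counts do not compare the genotypes. A total of 4050 genes were called in both genotypes with the same direction and 0 in both with opposite directions. All 8166 genes called in the joint fit had the same sign in each genotype. That fit favours such genes, because a disagreement between genotypes adds to its residual spread, so this count is no separate evidence of agreement. Neurod6 differed by -8.73 in KO and -8.61 in WT cultures, Lhx6 by 3.28 in KO and 3.17 in WT cultures, and Gad2 by 2.18 in both. In the limma test of whether the difference depended on genotype 0 genes passed, and 99 (0.831%) had an unadjusted p under 0.05. A share of 0.05 would be reached on average if no gene depended on genotype, so the test was conservative here. The count of 0 is therefore no evidence that the genotypes agree. That count rested on 1 array, since without MGE WT repeat 1 it was 1224 and MGE WT was then represented by repeat 2 alone; it was 0 without each of the other 7 arrays. Nr2f1, for which MGE WT repeat 2 stood apart, differed by -2.26 in KO and -3.51 in WT cultures.

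The arrays at 1 and 6 h of KCl give the same contrast in samples that the comparison at rest did not use, though under depolarization. They carry the same repeat numbers as the arrays at rest. The labels do not say whether the times shared culture preparations, so these arrays may not be independent of those at rest. At 1 h 4697 genes (39.4%) were higher and 3750 (31.5%) lower in MGE, and at 6 h 4751 (39.9%) and 3172 (26.6%). Of the genes higher in MGE at rest 4200 (91.8%) were called higher again at 1 h and 3506 (76.6%) at 6 h, and of those lower 3340 (93.0%) were called lower again at 1 h and 2486 (69.2%) at 6 h. Opposite calls were made for 17 genes at 1 h and 272 at 6 h. Of the genes at least 4-fold apart at rest, 346 of 347 higher and 537 of 537 lower ones were called again at 1 h, and 340 and 524 at 6 h. Neurod6 differed by -8.67, -8.76 and -8.69 at 0, 1 and 6 h, Lhx6 by 3.22, 3.33 and 3.55, and Slc17a7 by -5.81, -5.72 and -5.86. Larger shifts in value were seen for Fezf2 (-6.35, -6.82 and -8.06), Sv2b (-5.85, -5.44 and -3.06), Sst (2.37, 2.22 and 1.38) and Penk (3.48, 3.11 and 1.65). Whether the difference changed with time was not tested here. Prox1, a factor of caudal-eminence interneurons, was higher in MGE at rest (1.73 ± 0.26), at 0.16 at 1 h, and lower at 6 h (-2.57, adjusted p = 0.0016). Klf4 was at 1.86 at rest, -1.43 at 1 h and -2.33 at 6 h, and Gadd45b at 1.69, -0.89 and -0.94. Nptx2 (1.71 at rest and -1.08 at 6 h) and Pcsk1, a prohormone convertase (1.07 at rest and -2.12 at 6 h), were also called on opposite sides. Of 543 named list members and leading genes called at rest, 516 were called in the same direction at 1 h and 4 in the opposite one, and 439 and 17 at 6 h.

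**Figure D5:**
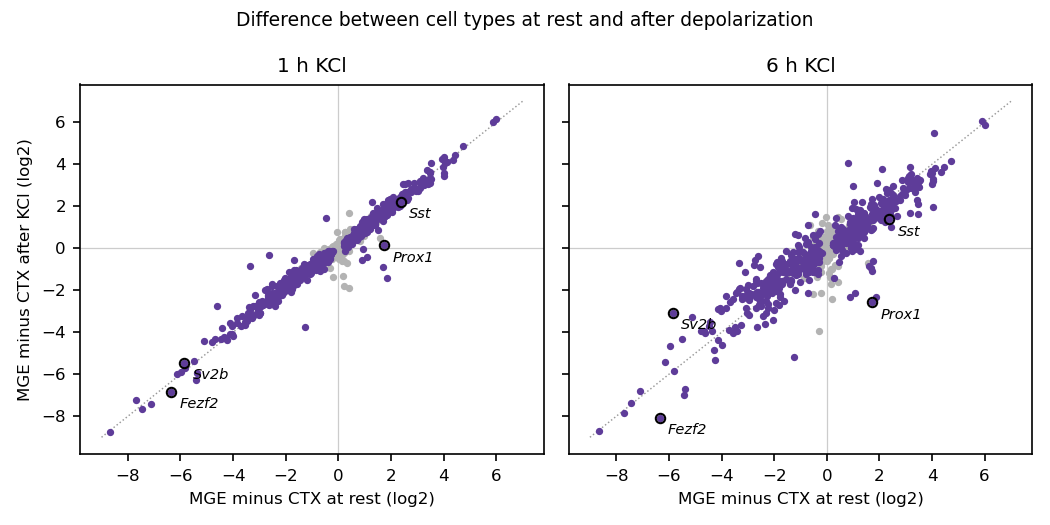
Log2 difference, MGE minus CTX, at rest (x axis) against the same difference after 1 h (left) and 6 h (right) of KCl (y axis), for every tested list member, each point 1 gene, purple where called at rest and grey where not, with the line of equality dotted. Points follow the line closely at 1 h and less closely at 6 h, and Prox1 lies at 1.73 at rest and -2.57 at 6 h.

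Probe sets of the same gene did not always give the same answer. A further tested probe set was present for 5657 tested genes, called or not. Among the called ones, 2686 had another probe set that passed in the same direction and 703 had one that passed in the opposite direction. Among list members these include Zeb2 and Dlg4, given above, and Kcnd2 and Rab27b. With all probe sets of a gene averaged, 57 of the 194 called genes that are named here had log2 differences over 1.5 times smaller or larger, and 189 of the 194 were still called. Neurod2 was then at -4.32, Sox5 at -2.07, Arpp21 at -3.79, Rspo2 at -3.04, Ccbe1 at -2.74 and Satb1 at -1.57. Maf was at 3.52, Glra3 at 2.43, Ifi35 at 1.84, Ntn1 at 1.52, Six3 at 1.40, Ngfr at 1.24, Ebf1 at 1.03 and Prox1 at 0.56, and Npy1r and Tac1 were at -0.94 and -0.88. Of 3165 tested probe sets without a single gene name, 1214 were higher and 862 lower in MGE, and they are not described further.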

How the data were processed

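RNA from each culture (100 ng, Trizol, amplified with NuGEN Ovation V2, per the labels' protocols) was hybridised to the Affymetrix Mouse Genome 430 2.0 platform. The deposited data were 1 table of intensity values on a linear scale for 45101 probe sets and 24 arrays, made by RMA, per the submitters' processing notes. RMA corrects background and brings all arrays to one distribution, which removes any change common to most genes. No other column of sample values was present. Intensities ran between 6.61 and 29464, without detection calls. The number of arrays limits the precision, and scan dates are not given in the sources used here.

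Intensities were converted to log2. The platform annotation gave 1 gene to 34958 probe sets, several to 932 and none to 9211. Each of 18194 genes was represented by its brightest probe set, by mean log2 intensity at rest. A gene was tested if it lay above the array median in at least 2 of 8 arrays, which left 11919 and left out 6275. limma 3.58.1 in R 4.3.3 was fitted with cell type and genotype, two-sided, with Benjamini-Hochberg adjustment over all genes tested and a call at an adjusted p under 0.05. The fit had 5 residual and 2.18 prior degrees of freedom. The arrays at 1 and 6 h were fitted likewise. The difference within each genotype and the cell type by genotype term were contrasts in a fit of group means to all 8 arrays. In that fit the groups shared an estimate of the spread. The procedure was tested on simulated data.

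The named genes were list members with large differences in each direction or without a call, up to 20 leading genes on each side whose groups did not overlap, and genes with opposite probe sets. Members and lists were chosen with earlier results of these data known; the contractile, interferon and stromal lists were drawn up after the leading genes had been seen. Promoters were taken from RefSeq on GRCm38.p6. Repeat numbers were read as names only.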

Additional observations from a re-analysis of the deposited data

Results flagged for a closer look

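Among 528 sets of 4 arrays, each the MGE or the CTX arrays of 1 named gene or list mean, 31 held an array whose gap to its neighbour relative to the range of the set exceeded Dixon's critical value. Chance flags about 1 in 20 such sets. Of the 31, 15 were MGE WT repeat 2, 2 were MGE KO repeat 2, 3 were CTX KO repeat 1, 4 were CTX KO repeat 2, 3 were CTX WT repeat 1 and 4 were CTX WT repeat 2.

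MGE WT repeat 2 lay below the other MGE arrays for the cadherins Cdh7 (log2 level 8.43) and Cdh8 (6.61), for Cntn4 (10.25), Dlx5 (9.19), Gabra4 (4.86), Kcnv1 (6.27), Lzts1 (8.07), Nr2f2 (5.50), Nsdhl (10.48), Robo1 (9.42), Sst (13.63) and Unc13a (8.53). The same array had the lowest MGE means for other interneuron markers (9.54), for GABA-A and glycine receptor subunits (10.21) and for cadherins and delta protocadherins (9.54). MGE KO repeat 2 stood apart for Grm2 (5.96) and Ntsr1 (6.56).

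Among CTX arrays, KO repeat 1 stood apart for Kdr (6.05), Shh (10.17) and Unc13a (11.06), and KO repeat 2 for Cux2 (12.69), Mag (4.47), Stmn2 (14.09) and the mean of the sex-linked list (10.83). WT repeat 1 stood apart for Klf4 (6.32), Zbtb18 (13.04) and the mean of Cajal-Retzius cell markers (8.39). WT repeat 2 stood apart for Npy2r (5.86), Ntn1 (6.28), Penk (7.33) and the mean of neuropeptide and opioid receptors (8.90). Kdr and Mag did not pass the filter on low levels.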

How the results depend on the processing

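Across 22 alternatives the number of genes called stayed within 1.5 times of 4576 higher and 3590 lower in MGE, except in KO arrays alone, with 2582 higher and 1734 lower. Leaving out 1 array at a time gave 3927 to 4707 higher and 2963 to 3790 lower. The genes at least 4-fold higher fell to 213 with log2(intensity + 64), against 347, and those at least 4-fold lower to 357 with that offset and 336 with all probe sets of a gene averaged, against 537; the offset shrinks differences near the background by construction. The cell type by genotype count was 0 to 1224 when 1 array was left out. The median of MGE and interneuron factors was 2.0 with a stricter filter (4 of 8 arrays), 1.46 with the offset, 1.99 in KO arrays alone and 1.61 to 1.93 with 1 array left out, against 1.73. That of cortical factors was -1.78 with probe sets averaged and -2.10 with the offset, against -2.70, and that of other interneuron markers 1.18 with the offset, against 1.51. The cause of the other changes was not tested.

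Of 194 named genes that were called, 193 were called in all 8 fits that left out 1 array, the exception being Zeb2, and 189 with WT arrays alone and 186 with KO arrays alone. Directions turned in 3 of 4461 recomputed values: Dlg4 was -1.09 with probe sets averaged, Gria2 0.02 in KO arrays alone and Shh -0.07 without MGE KO repeat 2 (-0.07 to 0.52 with 1 array left out).

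The labels do not say that repeat numbers pair arrays, and not every pair of groups deviated together. Deviations of same-numbered arrays correlated at -0.20 between MGE KO and MGE WT, 0.59 between CTX KO and CTX WT, and -0.21 to 0.10 between cell types. By this measure the CTX arrays followed their number and the MGE arrays over all genes did not. The repeat 1 arrays of MGE KO and MGE WT nonetheless correlated at 0.998. The repeats within MGE KO correlated at 0.980 and those within MGE WT at 0.946. Whether same-numbered arrays of KO and WT are independent is therefore not known. With the replicate block 4416 genes were higher and 3446 lower, and all 194 named calls were kept.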
